A study of Macaca mulatta with 24 samples.

Results

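The 10 core target genes of the transcription factor p53 were followed in rhesus macaque colon after total-body irradiation (TBI). They were the cell cycle inhibitor CDKN1A, the p53 ligase MDM2, the secreted cytokine GDF15, the receptors EDA2R and FAS, the RNA-binding protein ZMAT3, the Akt inhibitor PHLDA3, the DNA repair subunit DDB2, the sestrin SESN1 and the p53-induced nuclear protein TP53INP1. Every transcript probe of the Agilent array that carried one of these symbols was taken. This gave 14 of the 43603 transcript probes on the array, with 2 probes each for MDM2, TP53INP1, FAS and DDB2, and all 14 were among the 38200 probes tested. The genes were 10 of the 13420 named genes tested. The probe of PHLDA3 carried only a numbered locus symbol in the files and was named through its RefSeq gene ID.

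The colon samples came from 24 young-adult male macaques, each hybridised to 1 array without pooling. All irradiated animals had received a single uniform TBI with gamma rays. The groups were 4 unirradiated control animals labelled day 4, 4 animals each at 6.7 Gy and 7.4 Gy on day 4, 4 each on day 7, and 2 each on day 12. The same 4 controls served every day, so the comparisons with control are not independent of one another. Whole gut tissue was used, and samples with degraded RNA had not been arrayed. In such bulk tissue, a change in the number of cells of a type and a change in the RNA of each cell cannot be told apart. The question was which p53 targets were raised by the 2 doses and which of them stayed raised to days 7 and 12.

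p53 is stabilised after DNA strand breaks and switches on genes for cell cycle arrest, apoptosis, DNA repair and metabolism. Among its targets is MDM2, a ubiquitin ligase that marks p53 itself for degradation and so closes a feedback loop. In the gut, the proliferating crypt cells respond most strongly to radiation, and CDKN1A (p21) is the classic marker of this response. GDF15, a stress cytokine of the TGF-beta family, is released into blood and acts on the brainstem. DDB2 recognises damaged DNA in nucleotide excision repair.

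Levels are given as the log2 of the scanner's processed signal minus the 75th percentile of the same array, so 0 is the brightness of the probe at that percentile and 1 unit is a 2-fold difference. Levels of different probes are not comparable with each other, and only differences of 1 probe between groups are compared. A gene with 2 probes was represented by its brighter probe. A change was called when limma's Benjamini-Hochberg adjusted p over all 38200 probes was under 0.05 and the change was at least 2-fold, and it is said to have passed at any size when the first held, whatever the fold. Errors are SD for group levels and SE for differences. Over the 24 arrays, the processed signal at the 75th percentile ranged from 558.3 to 970.6, 66.7% to 85.0% of spots were well above background, and no spot was saturated. Of the member probes, ZMAT3 was well above background on 3 of the 4 controls, and all others on every array that measured them. The spot of CDKN1A was an outlier on the array of replicate 2 on day 7 after 6.7-Gy TBI and was left out, so that group has n = 3 for CDKN1A. The number of arrays limits the precision. The 4 controls sat at position 1 of 4 slides, while all day 7 and day 12 arrays sat at positions 3 or 4, so array position and irradiation cannot be told apart on those days. On day 4 the arrays at 7.4 Gy all sat at position 2, which held no control. Those at 6.7 Gy sat at positions 1 and 2, so position was partly mixed with dose on that day.

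Of the 10 targets, 6 rose at least 2-fold on day 4 at each dose, and the same 6 were called over both doses: GDF15, EDA2R, ZMAT3, PHLDA3, DDB2 and CDKN1A. The share of all probes called higher was 1.81% at 6.7 Gy, 3.4% at 7.4 Gy and 2.74% over both doses. On day 7, GDF15, EDA2R, DDB2 and ZMAT3 were called at each dose, against 0.0969% of all probes at 6.7 Gy and 0.128% at 7.4 Gy. Over both doses, PHLDA3 joined them to make 5 called targets, against 0.249% of all probes. No target was called on day 12, where 0.00785% of all probes were called at 6.7 Gy, 0.0105% at 7.4 Gy and 0.034% over both doses. At an unadjusted p under 0.05, limma gave 5 of the 10 targets on day 12 at each dose and over both doses, against 6.54% of all probes at 6.7 Gy, 6.85% at 7.4 Gy and 8.64% over both doses at that threshold.

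Counted at any size over both doses, 8 targets passed as higher on day 4, with MDM2 and FAS joining the 6 called ones, against 9.34% of all probes. TP53INP1 passed as lower on that day, and SESN1 was the 1 target that did not pass. The 5 targets called on day 7 were also the only ones that passed there, against 0.513% of all probes. ZMAT3 alone passed on day 12, close to the threshold, against 0.0419%. The median log2 change of the 10 targets over both doses was 1.47 on day 4, 0.83 on day 7 and 0.45 on day 12, while the median of all probes stayed within 0.083 of 0 in every comparison. All arrays of a group lay above all 4 controls for 7 targets on day 4 at 6.7 Gy (7.47% of all probes did) and for 8 at 7.4 Gy (10.7%). On day 7 the counts were 5 at 6.7 Gy (3.36%) and 6 at 7.4 Gy (3.09%), and on day 12, with 2 arrays a group, 4 (9.05%) and 5 (7.52%).

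**Figure D1:**
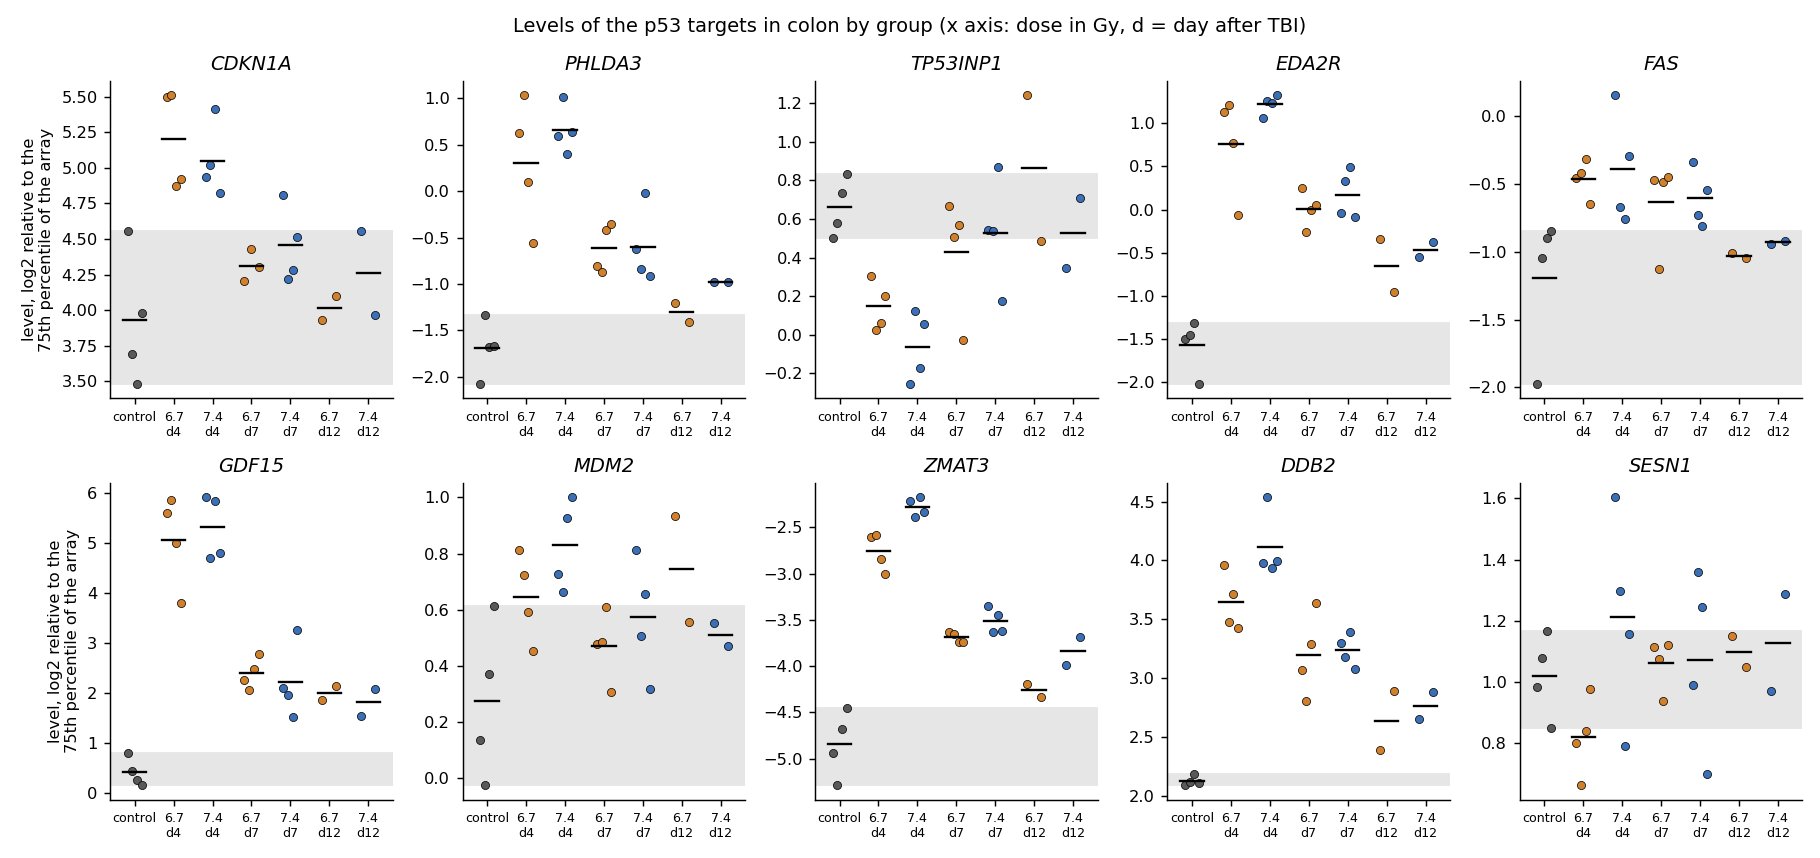
Level of each of the 10 targets (log2 relative to the 75th percentile of the array, representative probe) in the control group and the 6 groups of dose and day, with 1 point per animal and a bar at the group mean. GDF15, EDA2R, ZMAT3, PHLDA3 and DDB2 are highest on day 4 and lie closer to the controls on days 7 and 12, whereas SESN1 stays level and TP53INP1 is lowest on day 4.

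GDF15, the secreted cytokine, showed the largest change of the 10 targets. Its levels in the 4 controls were 0.79, 0.43, 0.26 and 0.15 (probe A_01_P016695). On day 4 they were 5.60, 5.86, 4.99 and 3.79 after 6.7-Gy TBI and 5.92, 4.71, 5.84 and 4.80 after 7.4-Gy TBI. All 8 irradiated arrays lay far above the controls, and GDF15 was 25.2-fold higher at 6.7 Gy and 30.0-fold higher at 7.4 Gy (limma adjusted p = 2.86e-06 and 5.89e-07). The difference over both doses was 4.78 ± 0.35 on the log2 scale, rank 11 from the top among the 38200 probes. Day 7 levels were 2.26, 2.06, 2.48 and 2.77 at 6.7 Gy and 2.09, 1.97, 1.51 and 3.27 at 7.4 Gy. Again no array overlapped the controls, and the change over both doses was 3.71-fold (log2 1.89 ± 0.35, limma adjusted p = 0.01, rank 95).

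On day 12 the 4 GDF15 levels were 1.85 and 2.13 at 6.7 Gy and 1.54 and 2.09 at 7.4 Gy, all above every control. The 2.82-fold difference over both doses (log2 1.49 ± 0.41, 95% interval 0.65 to 2.34) did not pass, with limma's adjusted p at 0.222. The day 7 calls of GDF15 at single doses were close to the threshold. They ended with slide as a block (limma adjusted p = 0.0854 at 6.7 Gy and 0.216 at 7.4 Gy), with scan day as a block (0.0505 and 0.0573) and with replicate number as a block (0.0674 and 0.0859). In all, 5 of 14 alternatives ended the call at 6.7 Gy and 8 of 14 that at 7.4 Gy. At 7.4 Gy (adjusted p = 0.0499) the call ended when any 1 of 21 of the 24 arrays was left out, with limma's adjusted p between 0.0511 and 0.200, and it was kept only without replicate 2 or 4 on day 4 at 6.7 Gy or without replicate 3 of its own group. At 6.7 Gy (adjusted p = 0.0419) it ended without any of 9 arrays, namely controls 2, 3 and 4, replicates 1, 3 and 4 of its own group, replicate 2 on day 7 at 7.4 Gy, and either array on day 12 at 6.7 Gy, with limma's adjusted p between 0.0536 and 0.126. Over both doses the day 7 call held without any single array and under every alternative that could be estimated.

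Of the 2 receptors of the TNF receptor family among the targets, EDA2R rose 5.92-fold on day 4 and FAS 1.7-fold over both doses. EDA2R is the receptor of the ectodysplasin isoform EDA-A2. Its control levels were -1.51, -1.46, -1.32 and -2.02 (probe A_01_P1740861). On day 4 the levels were 1.13, 1.21, 0.77 and -0.058 at 6.7 Gy and 1.06, 1.26, 1.24 and 1.32 at 7.4 Gy. On day 7 they were 0.26, -0.26, -0.0057 and 0.05 at 6.7 Gy and -0.041, 0.33, 0.50 and -0.092 at 7.4 Gy. Day 12 gave -0.34 and -0.96 at 6.7 Gy and -0.56 and -0.38 at 7.4 Gy. Every one of the 20 irradiated arrays lay above every control. Over both doses EDA2R was 5.92-fold higher on day 4 (log2 2.57 ± 0.20, limma adjusted p = 2.70e-07) and 3.17-fold higher on day 7 (log2 1.67 ± 0.20, adjusted p = 3.75e-04). The day 12 difference was 2.02-fold (log2 1.02 ± 0.23, 95% interval 0.53 to 1.5) and did not pass (limma adjusted p = 0.131). Of the 6 targets called on day 4, EDA2R kept the largest share of its day 4 log2 change, 64.9% on day 7 and 39.6% on day 12. The next largest shares were 62.4% for DDB2 on day 7 and 34.1% for ZMAT3 on day 12. Differences between these shares were not tested.

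FAS is the receptor of the Fas ligand and starts apoptosis through caspase-8. Its brighter probe (A_01_P1695511) read -1.97, -1.04, -0.90 and -0.85 in the controls, -0.46, -0.42, -0.31 and -0.64 on day 4 at 6.7 Gy and 0.16, -0.67, -0.76 and -0.29 on day 4 at 7.4 Gy. All 8 day 4 arrays lay above all controls. The change over both doses was 1.7-fold, which passed at any size (log2 0.77 ± 0.20, limma adjusted p = 0.0105) but not at 2-fold. On day 7 the levels were -0.47, -1.12, -0.49 and -0.44 at 6.7 Gy and -0.34, -0.72, -0.81 and -0.55 at 7.4 Gy, with 7 of 8 above every control and replicate 2 at 6.7 Gy within their range. The day 7 difference of 0.57 ± 0.20 on the log2 scale did not pass (limma adjusted p = 0.197), nor did that of day 12, 0.21 ± 0.23 (adjusted p = 0.86), where no array lay above all controls.

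ZMAT3, a zinc-finger protein that binds RNA and regulates splicing, had the smallest adjusted p of the 10 targets on each day over both doses. The controls read -4.94, -5.29, -4.68 and -4.45 (probe A_01_P1689321). Levels on day 4 were -2.60, -2.58, -2.84 and -3.00 at 6.7 Gy and -2.22, -2.39, -2.17 and -2.34 at 7.4 Gy. Those on day 7 were -3.63, -3.65, -3.74 and -3.74 at 6.7 Gy and -3.35, -3.63, -3.45 and -3.62 at 7.4 Gy, and those on day 12 were -4.19 and -4.34 at 6.7 Gy and -3.99 and -3.69 at 7.4 Gy. All 20 irradiated arrays were above every control. The change over both doses was 5-fold on day 4 (log2 2.32 ± 0.13, limma adjusted p = 2.84e-09), 2.36-fold on day 7 (log2 1.24 ± 0.13, adjusted p = 4.24e-05) and 1.73-fold on day 12 (log2 0.79 ± 0.15, adjusted p = 0.0438). At 7.4 Gy alone, the 2 arrays of day 12 were 2.01-fold above control with limma's adjusted p at 0.0556, just outside the threshold. At 6.7 Gy, the 2 arrays of day 12 lay 0.49 and 0.12 above the control of their own slide on the log2 scale. The probe lay near background in the controls. With the normexp background correction in place of the processed signal, its day 7 change over both doses was 1.35-fold. Its day 4 change at 6.7 Gy was then 1.91-fold, and both were under the 2-fold limit. In log2, its day 4 change under this correction was 0.93 at 6.7 Gy and 1.26 at 7.4 Gy. Over both doses, day 12 minus day 4 was then -0.80. The day 12 change from control was thus smaller under this correction than the 0.79 of the processed signal. Whether it passed under this correction is not given here, so the day 12 pass rests on the processed signal.

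DDB2, the damage-binding subunit of nucleotide excision repair, was called on day 4 and day 7 by both of its probes. Control levels of the brighter probe (A_01_P013417) were 2.09, 2.11, 2.18 and 2.11. On day 4 they were 3.96, 3.48, 3.72 and 3.42 at 6.7 Gy and 3.98, 4.54, 3.93 and 3.99 at 7.4 Gy. Those of day 7 were 3.07, 2.80, 3.29 and 3.64 at 6.7 Gy and 3.30, 3.18, 3.39 and 3.08 at 7.4 Gy. Day 12 levels were 2.39 and 2.89 at 6.7 Gy and 2.65 and 2.88 at 7.4 Gy. No irradiated array overlapped the controls on any day. Over both doses DDB2 was 3.37-fold higher on day 4 (log2 1.75 ± 0.15, limma adjusted p = 1.04e-06) and 2.14-fold higher on day 7 (log2 1.09 ± 0.15, adjusted p = 0.00155). The 1.49-fold difference of day 12 did not pass (log2 0.58 ± 0.18, adjusted p = 0.298). At 6.7 Gy on day 7 the call ended without control 2 (adjusted p = 0.0514), without replicate 3 (0.0596) or without replicate 4 of that group (1.90-fold, 0.0575).

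PHLDA3 competes with the kinase Akt for membrane lipids and so restrains survival signalling. Its control levels were -2.07, -1.33, -1.68 and -1.67 (probe A_01_P1769706). On day 4 the levels rose to 0.62, 1.03, 0.10 and -0.55 at 6.7 Gy and 0.60, 1.01, 0.40 and 0.64 at 7.4 Gy, 4.51-fold above control over both doses (log2 2.17 ± 0.23, limma adjusted p = 1.14e-05). On day 7 they were -0.81, -0.87, -0.42 and -0.35 at 6.7 Gy and -0.63, -0.84, -0.019 and -0.91 at 7.4 Gy. All 8 arrays of day 7 lay above every control, and the 2.12-fold change over both doses was called (log2 1.08 ± 0.23, limma adjusted p = 0.0225), while neither dose alone passed (adjusted p = 0.0896 and 0.0768). This call ended without control 1 (1.94-fold, adjusted p = 0.0836), control 3 (0.0620) or control 4 (0.0755), without replicate 3 on day 7 at 7.4 Gy (1.98-fold), with slide as a block (0.0523), and under the normexp correction (1.92-fold). On day 12 the levels were -1.21 and -1.41 at 6.7 Gy and -0.98 and -0.98 at 7.4 Gy, 3 of 4 above all controls, and the difference did not pass (log2 0.55 ± 0.27, adjusted p = 0.592).

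CDKN1A, which encodes the cyclin-dependent kinase inhibitor p21, rose on day 4 and did not pass the test later. The controls read 4.56, 3.69, 3.48 and 3.98 (probe A_01_P002585). Day 4 levels were 5.50, 5.51, 4.87 and 4.92 at 6.7 Gy and 4.93, 5.02, 5.41 and 4.82 at 7.4 Gy. All 8 lay above every control, and the change over both doses was 2.29-fold (log2 1.19 ± 0.19, limma adjusted p = 4.15e-04). On day 7 the levels were 4.21, 4.43 and 4.30 at 6.7 Gy (n = 3) and 4.81, 4.22, 4.29 and 4.52 at 7.4 Gy, of which 1 of 7 was above all controls. The day 7 difference was 0.46 ± 0.20 (95% interval 0.038 to 0.87, limma adjusted p = 0.33) and that of day 12 0.21 ± 0.22 (-0.26 to 0.68, adjusted p = 0.855). At 7.4 Gy alone the day 4 change was 2.17-fold and fell under 2-fold without control 3 (1.96-fold) or without replicate 3 of that group (1.99-fold), and with slide as a block (1.97-fold).

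MDM2, the ubiquitin ligase of p53, gave changes that depended on the probe. Its brighter probe (A_01_P1816106) read 0.14, -0.025, 0.37 and 0.61 in the controls, 0.81, 0.72, 0.59 and 0.45 on day 4 at 6.7 Gy and 0.73, 0.66, 0.93 and 1.0 at 7.4 Gy. The groups overlapped at 6.7 Gy and not at 7.4 Gy, and the change over both doses was 1.38-fold (log2 0.46 ± 0.13, limma adjusted p = 0.0147). Later differences of this probe were 0.25 ± 0.13 on day 7 and 0.35 ± 0.15 on day 12, neither of which passed (limma adjusted p = 0.428 and 0.507). The dimmer probe (A_01_P019143) read -2.20, -3.01, -2.08 and -2.29 in the controls, -1.1, -0.72, -1.47 and -1.59 on day 4 at 6.7 Gy and -0.82, -0.88, -0.83 and -0.53 at 7.4 Gy. All 8 of these lay above all controls, and its change was 2.64-fold (log2 1.40 ± 0.21, limma adjusted p = 1.80e-04), which was called. On day 7 it was 0.66 ± 0.21 with 6 of 8 arrays above all controls (adjusted p = 0.144), and on day 12 0.32 ± 0.24 (adjusted p = 0.772). Thus with the dimmer probe MDM2 would be a 7th target called on day 4, and none more on day 7 or 12.

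TP53INP1, a nuclear protein that promotes p53 phosphorylation and autophagy, moved in the opposite direction on day 4. Its brighter probe (A_01_P1683536) read 0.50, 0.58, 0.73 and 0.83 in the controls. On day 4 the levels were 0.31, 0.024, 0.059 and 0.20 at 6.7 Gy and -0.25, 0.12, -0.17 and 0.053 at 7.4 Gy. All 8 lay below every control, and the log2 change over both doses was -0.62 ± 0.16 (limma adjusted p = 0.00942), which passed at any size. The dimmer probe (A_01_P1738716) changed by -0.87 ± 0.29 with again all 8 arrays below the controls (adjusted p = 0.0362). For the brighter probe, the differences from control were -0.18 ± 0.16 on day 7 and 0.035 ± 0.18 on day 12, and neither passed (limma adjusted p = 0.684 and 0.978). The dimmer probe read -0.89 ± 0.21 in the controls. On day 7 it read -1.38 ± 0.47 at 6.7 Gy and -1.43 ± 0.84 at 7.4 Gy (SD, n = 4 each).

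SESN1, a sestrin that restrains the growth regulator mTORC1, did not differ detectably from control. It read 1.02 ± 0.14 (SD, n = 4) in the controls, 0.82 ± 0.13 and 1.21 ± 0.34 on day 4, 1.06 ± 0.085 and 1.07 ± 0.29 on day 7 (n = 4 each), and 1.1 ± 0.07 and 1.13 ± 0.23 on day 12 (n = 2 each), at 6.7 and 7.4 Gy in that order. The groups overlapped on every day. The 95% interval of its log2 change over both doses was -0.29 to 0.29 on day 4, -0.24 to 0.34 on day 7 and -0.24 to 0.43 on day 12, so a change of 2-fold lay outside it on each day.

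**Figure D2:**
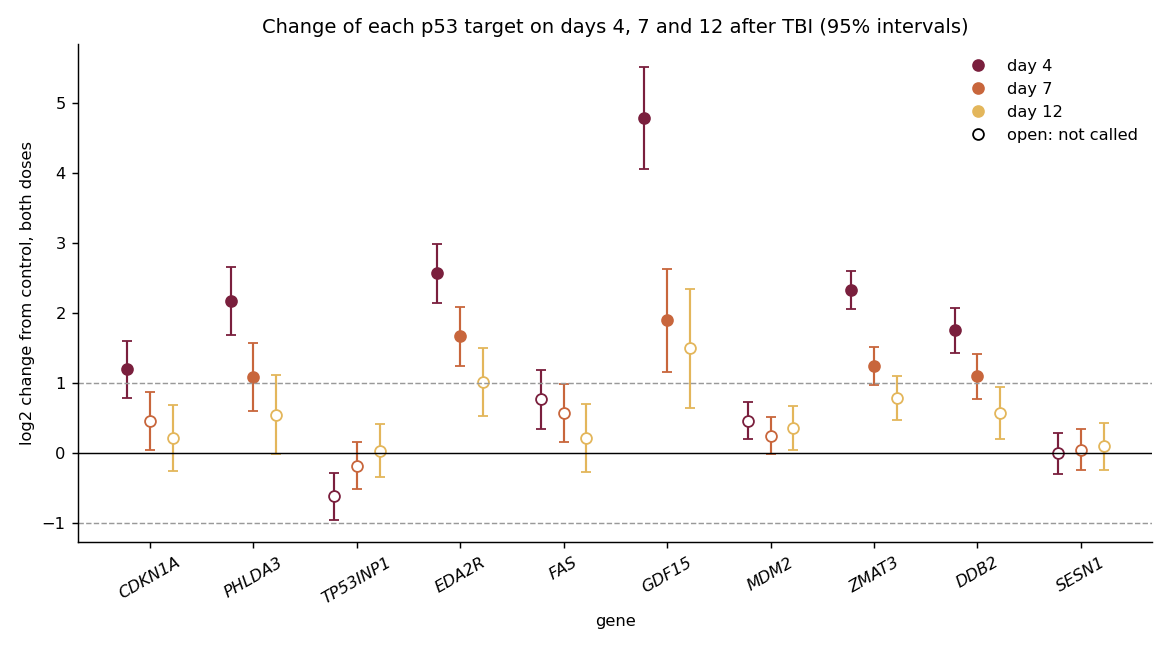
Log2 change from control of each target over both doses on days 4, 7 and 12 (representative probe), with 95% intervals from the limma fit. Filled points were called, and the dashed lines mark a 2-fold change. GDF15 stands at 4.78 on day 4, 1.89 on day 7 and 1.49 on day 12, and the intervals of EDA2R, ZMAT3, DDB2 and GDF15 lie above 0 on all 3 days.

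The 4 genes with 2 probes allowed a check within the gene. The log2 changes of the brighter DDB2 probe on days 4, 7 and 12 were 1.75, 1.09 and 0.58, and those of the dimmer one 1.87, 1.17 and 0.62. Both TP53INP1 probes were lower on day 4. For FAS, the second probe (A_01_P1671961) passed at any size on day 7 (0.59 ± 0.14, 8 of 8 arrays above all controls, limma adjusted p = 0.0324) where the first did not. The 2 probes of MDM2 differed most, by 1.38-fold against 2.64-fold on day 4. The difference between probes of a gene was not tested.

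**Figure D3:**
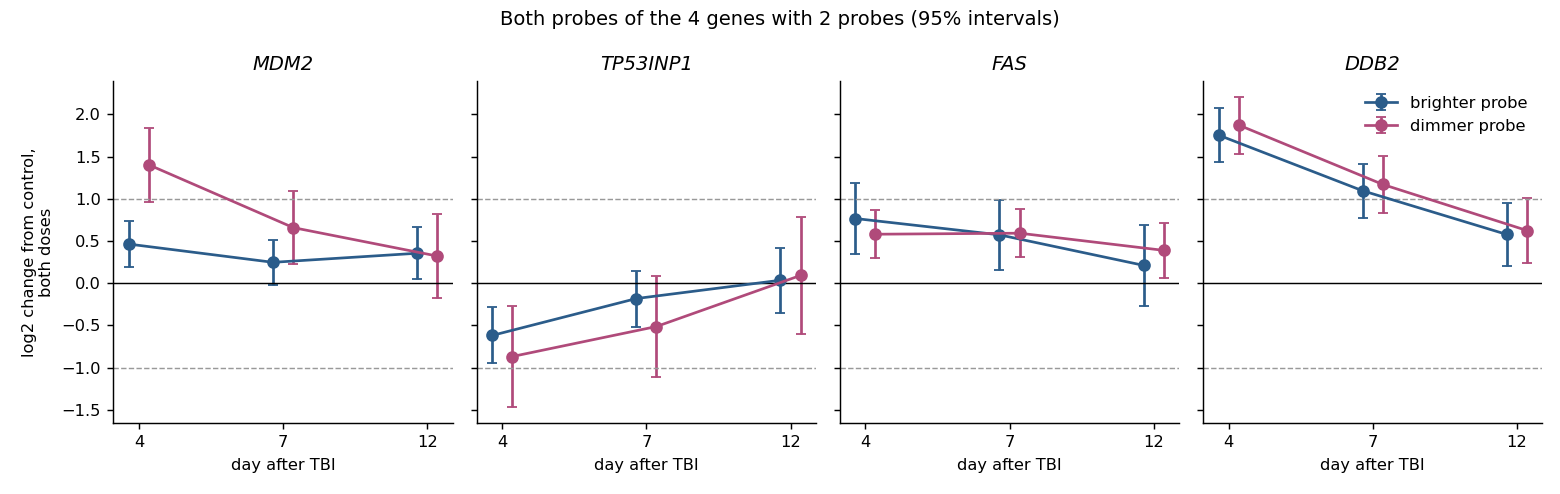
Log2 change from control over both doses on days 4, 7 and 12 for each probe of DDB2, FAS, MDM2 and TP53INP1, with 95% intervals. The probes of DDB2 run together, whereas on day 4 those of MDM2 stand at 0.46 and 1.40.

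Compared between days, in the same fit, 3 targets were called lower on day 7 than on day 4, against 4.44% of all probes called in either direction. GDF15 fell by 2.89 on the log2 scale (SE 0.29, limma adjusted p = 7.47e-06), PHLDA3 fell by 1.09 (0.19, 4.87e-04) and ZMAT3 fell by 1.08 (0.11, 7.47e-06). The call of PHLDA3 ended without replicate 2 on day 4 at 6.7 Gy (1.95-fold), and that of ZMAT3 under the normexp correction (1.59-fold). CDKN1A, EDA2R and DDB2 passed as lower at any size, and TP53INP1 passed as higher (0.44 ± 0.13, adjusted p = 0.0179). For comparisons between days, the share of all probes passing at any size was not computed. Between days 7 and 12 no target was called or passed at any size, and 0.107% of all probes were called. At an unadjusted p under 0.05 limma gave 4 targets, against 9.58% of all probes. The log2 differences of those 4, day 12 minus day 7, were -0.54 for PHLDA3, -0.65 for EDA2R, -0.52 for DDB2 and -0.45 for ZMAT3. GDF15 differed by -0.40 ± 0.35 between these days, with a 95% interval of -1.13 to 0.33.

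From day 4 to day 12, 5 targets were called lower, against 6.49% of all probes called in either direction: GDF15 (log2 -3.29 ± 0.35), PHLDA3 (-1.63 ± 0.23), EDA2R (-1.55 ± 0.20), ZMAT3 (-1.53 ± 0.13) and DDB2 (-1.18 ± 0.15). CDKN1A (log2 -0.98 ± 0.19) and FAS (-0.56 ± 0.20) passed as lower at any size, and TP53INP1 as higher (0.65 ± 0.16, limma adjusted p = 0.00588). Here too the share of all probes passing at any size was not computed. Expressed as the share of the day 4 log2 change, DDB2 retained 62.4% on day 7 and 32.9% on day 12, ZMAT3 53.4% and 34.1%, GDF15 39.6% and 31.2%, and CDKN1A 38.2% and 17.6%, and PHLDA3 retained 25.1% on day 12. These shares rest on the same controls and are given as a description. By rank of the log2 change among the 38200 probes, EDA2R stood at 122 on day 4, 132 on day 7 and 440 on day 12, and GDF15 at 11, 95 and 103.

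No target passed the test of a difference between the doses on any day, and no probe of the array was called (0% on day 4, 0% on day 7 and 0% on day 12). On day 4, limma's unadjusted p was under 0.05 for 3 targets, ZMAT3, DDB2 and SESN1, against 6.21% of all probes, and for 0 on day 7 (1.9% of all probes) and on day 12 (3.09%). ZMAT3 was 0.48 ± 0.15 higher on the log2 scale at 7.4 than at 6.7 Gy on day 4 (95% interval 0.16 to 0.79), with 4 of 4 arrays above all those at 6.7 Gy, but limma's adjusted p was 0.55. The same difference was 0.47 ± 0.18 for DDB2 (0.096 to 0.84, adjusted p = 0.686) and 0.39 ± 0.16 for SESN1 (0.058 to 0.73, 0.732). For GDF15 it was 0.25 ± 0.41 on day 4 (-0.59 to 1.1), -0.18 ± 0.41 on day 7 (-1.03 to 0.66) and -0.18 ± 0.57 on day 12 (-1.38 to 1.02), intervals that leave room for a 2-fold difference on day 12 in either direction. The median over the 10 targets, 7.4 minus 6.7 Gy, was 0.31 on day 4, 0.069 on day 7 and 0.11 on day 12.

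**Figure D4:**
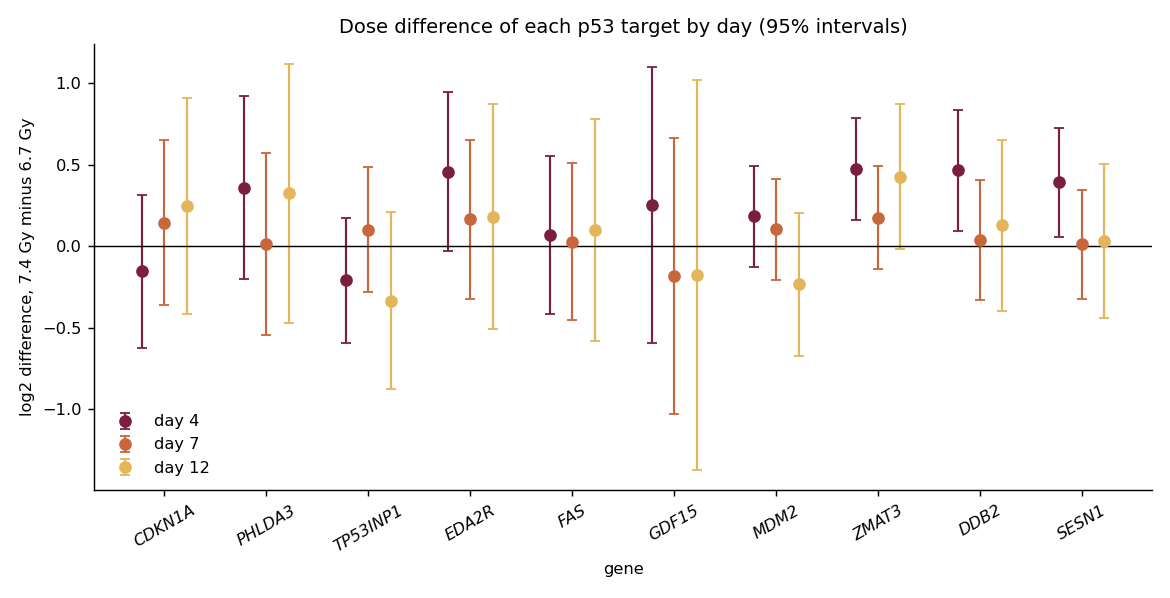
Log2 difference between 7.4 and 6.7 Gy for each target on days 4, 7 and 12, with 95% intervals from the limma fit. ZMAT3, DDB2 and SESN1 on day 4 have intervals above 0, and none passed after adjustment.

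On 4 of the slides 1 control was present, and the level of each irradiated array was also taken relative to the control of its own slide. On day 4 (4 arrays), GDF15 was 3.36 to 5.66 above its slide's control on the log2 scale, EDA2R 1.40 to 3.28 and ZMAT3 2.06 to 2.46. On day 7 (6 arrays) the ranges were 0.72 to 2.83 for GDF15, 1.19 to 2.07 for EDA2R, 0.71 to 1.67 for ZMAT3, 0.69 to 1.53 for DDB2 and 0.42 to 2.05 for PHLDA3. All 6 arrays lay above their slide's control for these 5 targets, and 3 of the 5 measured for CDKN1A. For MDM2 and FAS 5 of 6 did, for SESN1 3 of 6 and for TP53INP1 2 of 6. On day 12 only 2 arrays, both at 6.7 Gy, shared a slide with a control. Both lay above their slide's control for GDF15 (1.59 to 1.98), EDA2R (0.98 to 1.06) and DDB2 (0.20 to 0.78). The same held for PHLDA3 (0.26 to 0.48), ZMAT3 (0.12 to 0.49) and CDKN1A (0.12 to 0.45). For MDM2, TP53INP1 and SESN1 1 of 2 lay above it, and for FAS 0 of 2. TP53INP1 was below its slide's control on 4 of 4 arrays on day 4. The share of all probes above or below the slide's control was not computed, so these counts are a description.

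Over the 24 arrays (23 for pairs with CDKN1A) the levels of the targets had a median Pearson r of 0.59 over the 45 pairs and a range of -0.78 to 0.94, as a description over arrays that share dose and day. Not all targets ran together. The r of SESN1 with the others was -0.36 to 0.12, and TP53INP1 had a negative r with every target except SESN1. The r of other gene pairs was not computed. The closest pair was PHLDA3 and EDA2R (r = 0.94), followed by EDA2R and ZMAT3 (0.93). GDF15 and TP53INP1 were farthest apart (-0.78). With each group's mean removed, the median r was 0.17 (-0.60 to 0.76), highest for MDM2 and ZMAT3 (0.76) and for PHLDA3 and EDA2R (0.67).

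Of 37 further p53 targets listed from textbook knowledge, 26 had a tested probe, and 6 were called higher on day 4 over both doses, 13 passed as higher at any size and 2 as lower. At single doses, 5 were called higher on day 4 at 6.7 Gy and 10 at 7.4 Gy, where 1 was called lower. Of all probes, 2.74% were called higher on day 4 over both doses, 1.81% at 6.7 Gy and 3.4% at 7.4 Gy. Over both doses, 9.34% of all probes passed as higher on that day. The median log2 change of the 26 was 0.62 on day 4, 0.14 on day 7 and 0.027 on day 12, against -0.027, -0.0069 and -0.0014 for all named genes. PLK2, a polo-like kinase, was 7.03-fold higher on day 4 (log2 2.81 ± 0.42, limma adjusted p = 1.84e-04), and RPS27L, a ribosomal protein paralog, 3.23-fold (log2 1.69 ± 0.17, adjusted p = 4.49e-06). The apoptosis gene PMAIP1 (NOXA) was 3.06-fold higher on day 4. It was the only further target called on day 7 (2.39-fold, log2 1.26 ± 0.30, limma adjusted p = 0.0382). At single doses PMAIP1 was called on day 7 at 7.4 Gy only. Its lowest day 7 array at 6.7 Gy (-4.59) lay within the controls (-4.85 to -4.56). At any size, 5 of the 26 passed as higher on day 7 over both doses, against 0.513% of all probes. On day 12 PMAIP1 was at 2.14-fold and did not pass (adjusted p = 0.313), and no further target was called. PMAIP1 was well above background on 3 of the 4 controls, where its level was -4.70 ± 0.13 (SD, n = 4), against -3.51 ± 0.021 and -3.71 ± 0.011 on day 12 (n = 2 each). The other 3 called on day 4, named after their values were seen, were the stress gene GADD45A (2.25-fold), the autophagy regulator DRAM1 (2.23-fold) and the apoptosis effector BAX (2.01-fold). The 2 that passed as lower, named in the same way, were APAF1 (-0.52 ± 0.15) and CCNG2 (-0.91 ± 0.23).

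Upstream of the targets, 9 regulators of p53 were all tested and none was called against control over both doses. On day 4 over both doses, 9.34% of all probes passed as higher at any size. The kinase CHEK1 and the break sensor NBN, the latter 1.89-fold higher over both doses and called at 7.4 Gy alone (2.09-fold, limma adjusted p = 1.76e-04), were the 2 regulators that passed at any size on day 4, and 0 did on days 7 and 12. Among 13 binding partners of the targets, CCND1 (1.92-fold) and PCNA (1.74-fold), both bound by p21, passed as higher on day 4. EDA, the gene of the EDA2R ligand, passed as lower (-0.64 ± 0.20, adjusted p = 0.0305), and no partner was called against control over both doses. At 7.4 Gy alone CCND1 was called on day 4 (2.31-fold), and both CCND1 and the cyclin CCNE1 were called lower on day 12 than on day 4. Of the GDF15 receptors, GFRAL was well above background on 1 of the 4 controls and RET on 0. CHEK1 and these partners were named after their values were seen.

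No cell cycle gene that p21 is known to lower was called or passed as lower on any of the 3 days over both doses. Of 16 listed, 14 were tested, 2 were called higher on day 4 and 6 passed as higher, with a median log2 change of 0.62 on day 4, 0.43 on day 7 and 0.062 on day 12. The 2 called were CCNA2 (2-fold) and AURKA (2.04-fold), named after their values were seen. The integrated stress response, a p53-independent route that also raises GDF15, was listed with 9 genes, all tested. Of these, 5 were called higher on day 4 and 0 on days 7 and 12, with medians of 1.29, 0.16 and -0.11. Of all probes, 2.74% were called higher over both doses on day 4, 0.249% on day 7 and 0.034% on day 12. On day 4, 9.34% of all probes passed as higher at any size. The parts of the integrated stress response and of p53 in the GDF15 levels were not tested. CHAC1, a glutathione-degrading enzyme, was 3.5-fold higher on day 4 (log2 1.81 ± 0.22, limma adjusted p = 3.03e-05) and PSAT1, of serine synthesis, 2.9-fold (log2 1.53 ± 0.36, adjusted p = 0.00517). PSAT1 was dim in the controls, at -4.95 ± 0.55 (SD, n = 4), and well above background on 3 of the 4. CHAC1 stood at -1.69 ± 0.39 in the controls, -0.20 ± 0.42 and 0.43 ± 0.52 on day 4, and -1.35 ± 0.33 and -1.46 ± 0.15 on day 7 (SD, n = 4 each).

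**Figure D5:**
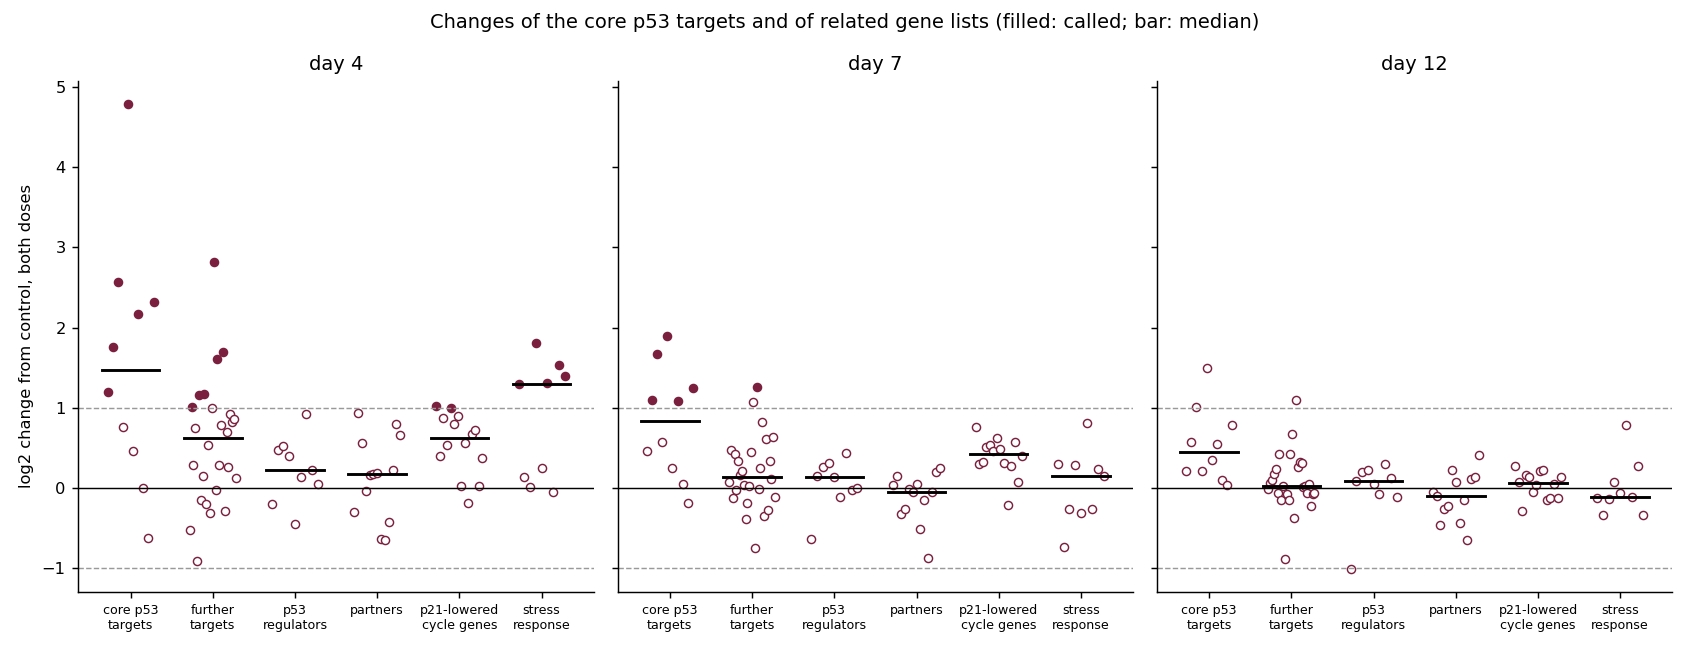
Log2 change from control over both doses on days 4, 7 and 12 for the core targets and for the related lists (further p53 targets, regulators of p53, partners of the targets, cell cycle genes lowered through p21, integrated stress response), 1 point per gene. Filled points were called, dashed lines mark a 2-fold change and the bar is the median, which for the core targets is 1.47, 0.83 and 0.45.

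Markers of the cell types of the gut were followed in the same fit. All markers of absorptive colonocytes that could be tested, 8 of 9 listed, were well above background on at least 1 array of every group. Of these, 6 were called lower on day 4 over both doses and 0 on days 7 and 12. Their summed level (log2) was 8.83 to 9.55 in the controls, 6.76 to 8.07 and 5.46 to 7.86 on day 4, 8.54 to 8.73 and 7.25 to 8.97 on day 7, and 9.04 to 9.29 and 9.06 to 9.12 on day 12. Day 4 ranges did not overlap the controls. General epithelial markers had 1 of 4 called lower on day 4 over both doses, and 3 passed as lower at any size. Neutrophil markers had 2 of 3 called higher and the third passing as lower at any size. Fibroblast (1 of 6) and endothelial markers (1 of 4) had 1 each called higher, and 4 and 2 passed as higher at any size. At 6.7 Gy alone, 0 neutrophil, fibroblast or endothelial markers were called higher on day 4. At 7.4 Gy alone, 2, 2 and 1 were, in that order. Of all probes, 2.74% were called higher and 9.34% passed as higher on that day over both doses. The share of all probes lower than control was not computed for any day. T lymphocyte markers had 2 of 7 called lower on day 7, and their summed level was 4.43 to 4.54 in the controls and 3.41 to 3.98 and 3.23 to 4.04 on that day. Red blood cell markers had 2 of 3 called lower on days 4 and 7 and 1 on day 12. No marker of B lymphocytes, plasma cells, macrophages or smooth muscle was called against control, while 1 plasma cell marker, TNFRSF17, was called lower on day 7 than on day 4. The part of these marker changes in the levels of the p53 targets was not tested.

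The genes most like the targets were found by Pearson r with the mean standardised level of the 10 targets, over 12682 named genes measured on all 24 arrays, as a description. The 5 highest were the membrane scaffold kinase CASK (r = 0.92), RPS27L (0.92), ANKRD65 (0.91), the gelatinase MMP2 (0.89) and ARL2BP (0.88), with r over the 7 group means of 0.99, 0.97, 0.95, 0.94 and 0.92. RPS27L was also on the list of further p53 targets. ANKRD65 was not well above background on any control, and against the floor it was at least 24.3-fold higher on day 4 and at least 10.1-fold higher on day 7 (8 of 8 arrays well above background on each day), while on day 12 it was well above background on 1 of 4. The floor was, per control array, the higher of the probe's own signal and the lowest signal of any probe well above background. The 5 lowest were RIOK3 (-0.86), the macrophage growth factor CSF1 (-0.86), the chloride channel CLCN2 (-0.84), OGFOD2 (-0.84) and KCNV2 (-0.84).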

How the data were processed

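RNA from the colon of 24 rhesus macaques had been labelled with 1 colour and hybridised to 24 Agilent arrays (rheMac2 layout, 6 slides, 4 positions a slide, 2 scan days), read with Feature Extraction 11.0.1.1 per the file headers. The deposited scanner files hold spot intensity, background-corrected by the authors' scanner software. The authors also deposited a series table of log2 values, scaled to the 75th percentile of each array in GeneSpring and centred on each probe's median over the arrays. Their second table held the raw signals, and their log2 was within 0.001 of the log2 of the scanner values for 100% of values.

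From the intensities, log2 of the processed signal minus the 75th percentile of the array was computed. Outlier spots were set to missing, spots of a probe were averaged, and a probe was kept where 2 or more arrays had it well above background (38220, of which 20 could not be fitted and 38200 were tested). Names came from the series tables for 18640 of 43603 probes and from RefSeq gene IDs (names only) for 3184, and 21779 stayed unnamed. limma 3.58.1 in R 4.3.3 fitted 1 mean per group over all 24 arrays with empirical Bayes moderation, two-sided tests and Benjamini-Hochberg adjustment within each of 15 contrasts: 6 groups against control, 3 days over both doses against control, 3 pairs of days and 3 dose differences. The fit was tested on simulated data with known changes. Replicates were separate animals, grouped by the labels. The treatment label gives another last day than the titles, whose 12 days were followed. Alternatives covered background correction, scaling, dim-probe filters, probe choice, call rule, variance model, slide, array position, scan day and replicate number as blocks, and each array left out.

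The members, the gene lists and the marker lists were chosen with earlier results of these data known. Named genes were all members, list genes called on day 7 or 12, the 5 largest and 5 lowest list changes called on day 4, and the 5 highest and 5 lowest genes by likeness; other names are marked as chosen after their values were seen. 1 gene of the list of p53 regulators is not reported here. No probe sequence was used here.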

Additional observations from a re-analysis of the deposited data

Results flagged for a closer look

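The levels of 2 single arrays stood far from the others of their group among 49 groups of 4 levels examined, where chance alone gives about 1 in 20. FAS on day 7 after 6.7-Gy TBI read -1.12 in replicate 2 and -0.49 to -0.44 in the other 3 animals, and without that array the log2 change was 0.72 with limma's adjusted p at 0.247. DDB2 after 7.4-Gy TBI read 4.54 on day 4 in replicate 2 and 3.93 to 3.99 in the other 3, and without it the log2 change was 1.85 with limma's adjusted p at 5.6e-06.

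The change from control was called different between days, at 2-fold or more, for 5 targets, as tested by the day contrasts. Between days 7 and 4 the log2 differences were -2.89 for GDF15, -1.09 for PHLDA3 and -1.08 for ZMAT3. Between days 12 and 4 they were -3.29 for GDF15, -1.63 for PHLDA3, -1.55 for EDA2R, -1.18 for DDB2 and -1.53 for ZMAT3. The direction was down in each of these calls, while TP53INP1 passed as higher at any size in both comparisons.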

How the results depend on the processing

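Over 18 alternatives and 24 left-out arrays, no result reversed, 595 recomputed counts stayed within 1.5 times their main value and 19 moved further. On day 7, fitting only the groups compared left 2 called targets at 6.7 Gy (GDF15, EDA2R) and 0 at 7.4 Gy, and normexp left 3 over both doses (GDF15, EDA2R, DDB2). On day 12 at 7.4 Gy, 1 target, ZMAT3, was called under quantile, median or spike-in scaling, with detection on every array of a group, and with array position as a random block. Over both doses spike-in scaling gave 3 on day 12 (GDF15, EDA2R, ZMAT3), while moving the median of all probes by 0.30. An unadjusted p with 2-fold change gave 1, 3 and 2 at 6.7 Gy, at 7.4 Gy and over both doses on day 12. Without a fold threshold the counts were 1 for day 12 over both doses, 7 for day 7 against day 4 and 8 for day 12 against day 4. The share of all probes without a fold threshold was not computed for the comparisons between days. Leaving out each array gave 2 to 5 on day 7 at 6.7 Gy (2 without control 2 or without replicate 3 or 4 of that group), 3 to 5 at 7.4 Gy, 4 to 5 over both doses, 5 to 6 on day 4 at 7.4 Gy, 0 to 1 on day 12 over both doses (EDA2R, without replicate 4 on day 4 at 6.7 Gy), 2 to 4 for day 7 against day 4 and 5 to 6 for day 12 against day 4. Of 39 calls of single targets, 26 held under every alternative and 33 without any array. Normexp moved the median of all probes by -0.18 on day 4. Array position as a fixed block could not be estimated for days 7 and 12 against control or against day 4. Array position with scan day, chosen after seeing the data, ended the call of CDKN1A on day 4 at 7.4 Gy (adjusted p = 0.0667), with the change larger at 3.94-fold against 2.17-fold. The causes were not tested.

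Replicate numbers did not pair the animals: the median correlation of deviations was 0.0038 within a number and -0.0025 between numbers, and 8 of 24 arrays correlated best with their own number. Arrays of the same slide had a median of 0.126 (36 pairs), against -0.0203 for arrays of other slides. Slide as a block ended the calls of GDF15 on day 7 at each dose, of PHLDA3 on day 7 over both doses and of CDKN1A on day 4 at 7.4 Gy. With the replicate block, 3 targets were called on day 7 at each dose (GDF15 lost), 6 for day 12 against day 4 (CDKN1A added), 6 on day 4, 5 on day 7 over both doses, 0 on day 12 and 3 for day 7 against day 4.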
